A study of Mus musculus with 70 samples.

Results

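This account covers liver resident macrophages sorted from male mice that carry a myeloid knock-in of osteopontin, after 24 weeks on a diet that causes nonalcoholic steatohepatitis (NASH) or on a control diet. It holds 9 of the 70 RNA-seq libraries of the series, all those labelled as macrophages of male mice with the OpnKI Mye genotype: 5 on the NASH diet (called KI NASH) and 4 on the control diet (called KI control). By its label the knock-in acts in myeloid cells, the name Opn stands for osteopontin, and both diet groups carry it. It is set beside 9 male macrophage libraries of Lyz2.Cre+/+ mice, which the titles call WT (5 on the NASH diet and 4 on the control diet), 10 KI macrophage libraries of females (6 on the NASH diet and 4 on the control diet) and 8 KI male liver libraries. Shares of the WT male and KI female libraries used the 8 liver libraries of their own sex and genotype, and each liver group has 4. The cells were sorted as F4/80high CD11blow. The labels name no driver of the knock-in, and the Lyz2 promoter named in the WT genotype is active in macrophages, monocytes and neutrophils. They give neither the age of the mice nor whether animals were pooled, so the spread below is that between libraries.

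Osteopontin, the product of Spp1, is a secreted phosphoprotein that binds integrins and CD44. The resident macrophage of the liver is the Kupffer cell, which lines the sinusoids and expresses Clec4f, Timd4 and Vsig4. In steatohepatitis Kupffer cells are partly lost, and monocytes that enter the liver become macrophages, among them lipid-associated macrophages, known by Trem2, Gpnmb, Cd9 and Spp1. A sorted macrophage can also bring RNA of other liver cells along, from free transcripts, attached cells or material it has engulfed. Hepatocytes are the main such source in liver.

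Examples of hepatocyte and macrophage genes are shown here by the 150 bases before the annotated start site, 5′ to 3′ on the strand of the gene. The sequences come from RefSeq on build GRCm38.p6. Each carries its marked letters, which most genes of its class lack. Where a gene had several entries, the one with the most matches was taken. Alb (chr5:90460720-90460869, plus strand) and Fabp1 (chr6:71199729-71199878, plus strand) are hepatocyte genes, and capitals mark GTTAAT, one arm of the palindromic binding site of the hepatocyte factor HNF1. Emp1 (chr6:135362781-135362930, plus strand) and Olr1 (chr6:129507166-129507315, minus strand) rose as macrophage genes, and capitals mark TGAGTCA, the AP-1 site. Spp1 (chr5:104434961-104435110, plus strand), Timd4 (chr11:46810649-46810798, plus strand) and Folr2 (chr7:101857191-101857340, minus strand) stand for the knocked-in gene and for Kupffer cell genes that fell, and capitals mark GGAAGTG, a site of the ETS family, to which the macrophage factor PU.1 belongs.
Alb: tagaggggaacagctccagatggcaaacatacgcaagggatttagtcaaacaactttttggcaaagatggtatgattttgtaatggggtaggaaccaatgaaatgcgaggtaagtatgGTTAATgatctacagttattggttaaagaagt
Fabp1: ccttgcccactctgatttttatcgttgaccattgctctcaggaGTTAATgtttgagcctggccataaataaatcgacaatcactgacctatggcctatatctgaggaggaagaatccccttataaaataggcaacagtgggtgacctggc
Emp1: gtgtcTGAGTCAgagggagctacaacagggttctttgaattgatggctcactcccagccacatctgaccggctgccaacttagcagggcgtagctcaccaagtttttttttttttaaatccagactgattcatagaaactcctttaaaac
Olr1: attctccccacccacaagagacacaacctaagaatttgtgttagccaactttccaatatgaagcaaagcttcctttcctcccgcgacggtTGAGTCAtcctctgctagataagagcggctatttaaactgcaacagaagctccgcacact
Spp1: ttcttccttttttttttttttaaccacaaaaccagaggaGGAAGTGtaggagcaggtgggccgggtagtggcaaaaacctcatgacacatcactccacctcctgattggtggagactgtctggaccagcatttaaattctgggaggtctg
Timd4: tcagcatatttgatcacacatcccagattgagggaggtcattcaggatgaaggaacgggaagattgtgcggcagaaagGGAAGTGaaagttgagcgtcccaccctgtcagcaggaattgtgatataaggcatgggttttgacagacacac
Folr2: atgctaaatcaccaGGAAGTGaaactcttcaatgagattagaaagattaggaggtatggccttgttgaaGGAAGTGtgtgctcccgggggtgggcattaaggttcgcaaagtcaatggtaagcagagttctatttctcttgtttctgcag
The marked letters begin 32 bases before the start site in Alb, 107 in Fabp1, 145 in Emp1, 60 in Olr1, 111 in Spp1, 72 in Timd4, and 136 and 81 in Folr2. A match of letters is a description of the sequence and does not show that a factor binds there.

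The macrophage libraries held 18314940 to 21808178 counts in KI NASH and 16512356 to 22247674 in KI control. At these depths 1 count is worth at most 0.0546 CPM (counts scaled to the library total, and below also by TMM factors) in KI NASH and 0.0606 CPM in KI control. The defining markers of the sorted cell were present in every library. Clec4f, a Kupffer cell lectin, lay at 3043 to 10325 CPM in KI NASH and 11359 to 12968 CPM in KI control. The CD11b gene Itgam lay at 72.7 to 155 CPM in KI NASH and 75 to 180 CPM in KI control. Lyz2, the gene whose promoter drives the Cre of the WT mice, lay at 1565 to 3801 CPM in KI NASH, whereas in KI control it lay at 2432, 2578 and 1447 CPM in replicates 1, 2 and 4 and at 141 CPM in replicate 3. Lyz2 did not pass the test (log2 fold change 0.44, SE 0.68, edgeR quasi-likelihood test, adjusted p = 0.69). WT control replicate 4 was also low, at 125.8 CPM, and so were 5 of the 10 KI female libraries, at 42.1 and 43.6 CPM in NASH replicates 3 and 4 and at 92.1, 72.7 and 93.2 CPM in control replicates 1 to 3. The other macrophage libraries of these groups held 1447 to 3801 CPM. Whether the animals carried the labelled genotype, those with low Lyz2 or those with high Lyz2, was not tested.

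Spp1 was the first check of the genotype. It reached 200, 152, 45.5, 61.2 and 41.5 CPM in KI NASH replicates 1 to 5, against 7.10, 11.5, 7.89 and 10.5 CPM in KI control. All 5 KI NASH libraries lay above all 4 KI control libraries, and replicates 1 and 2 stood above the other KI NASH libraries. Spp1 rose by 3.43 on the log2 scale (SE 0.73, adjusted p = 0.0034). In WT macrophages it was at 5.65 to 53.3 CPM on the NASH diet and 0.277 to 0.550 CPM on the control diet, so that KI control lay above WT control in every library. Counts per symbol do not tell transcripts of the knock-in from those of the native gene. Spp1 is also a gene of lipid-associated macrophages and bile duct cells, and the other 9 genes of the bile duct list summed to 2.23 to 10.8 CPM in KI NASH and 0.804 to 1.88 CPM in KI control. The part of bile duct cells in the Spp1 rise was not tested.

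Hepatocyte RNA was more abundant in the KI NASH libraries. The hepatocyte share of a library is the median, over 30 hepatocyte genes, of its CPM divided by the mean CPM in liver of the same sex, genotype and diet, which is KI male liver for the KI male libraries. It came to 0.703%, 0.488%, 1.20%, 3.44% and 0.725% in KI NASH replicates 1 to 5, against 0.153%, 0.209%, 0.158% and 0.171% in KI control. The lowest KI NASH library lay above the highest KI control library, and KI NASH replicate 4 carried the most. The geometric means differed by 5.86-fold (two-sided exact permutation test, p = 0.0079, the smallest that 5 against 4 libraries allow; adjusted p = 0.013 over 4 comparisons of shares). The ratio of summed CPM, in which a few genes of the list that macrophages also express dominate, gave a log2 difference of 0.32 in place of 2.55 (exact permutation p = 0.397) and, without Apoc1, of 0.58 (exact permutation p = 0.071).

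The other 3 comparisons place that difference. In WT males the share was 0.0716% to 0.406% on the NASH diet and 0.108% to 0.271% on the control diet, which overlapped (exact permutation p = 0.841, adjusted p = 0.841). On the NASH diet the KI male share was 5.14 times the WT male share, with no overlap between the groups (exact permutation p = 0.0079, adjusted p = 0.013). In KI females it was 0.0585% to 0.707% on the NASH diet and 0.0205% to 0.0415% on the control diet, again with no overlap (exact permutation p = 0.0095, adjusted p = 0.013).

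**Figure D1:**
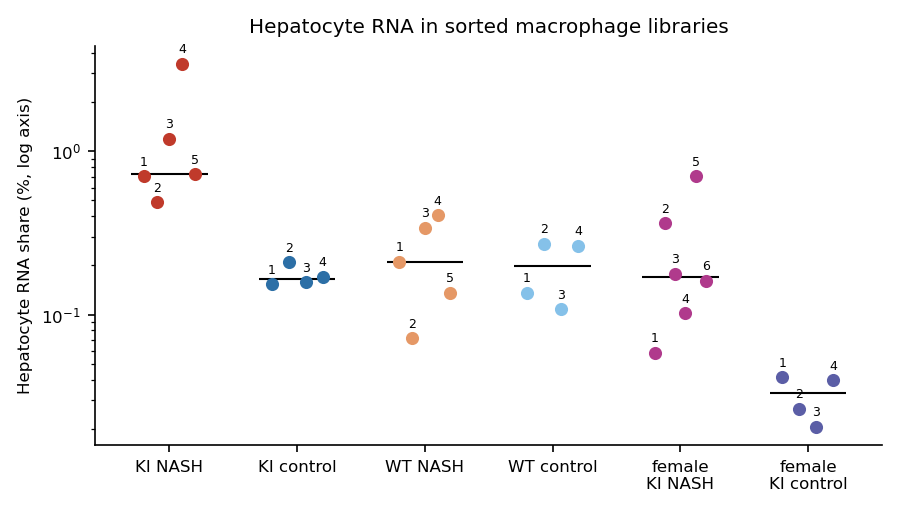
Hepatocyte RNA share of each sorted macrophage library in percent, on a log axis, for 4 male and 2 female groups; points are libraries with their replicate numbers and lines are group medians. KI NASH males lie at 0.488% to 3.44%, above KI control males at 0.153% to 0.209%.

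KI NASH replicate 4 was also the highest library for single hepatocyte genes. Alb, which encodes serum albumin, was at 437, 300, 538, 1604 and 214 CPM in KI NASH replicates 1 to 5, against 168, 201, 139 and 117 CPM in KI control. The groups did not overlap, and the log2 fold change was 1.99 (SE 0.65, adjusted p = 0.036), which lost the threshold without KI NASH replicate 4 (1.24, adjusted p = 0.14) and without any 1 KI control library (adjusted p 0.061 to 0.092). Ttr, which encodes transthyretin, a carrier of thyroid hormone and retinol, was at 33.4, 22.7, 53.6, 161 and 27.8 CPM in KI NASH and at 8.48, 11.4, 7.61 and 8.45 CPM in KI control (log2 fold change 2.73, SE 0.63, adjusted p = 0.0059). The groups did not overlap in Ttr either. Apoc1, an apolipoprotein gene of the same list, overlapped between the groups at 311 to 1369 CPM in KI NASH and 888 to 1076 CPM in KI control (log2 fold change -0.53, adjusted p = 0.32), levels far above the 3.19% of its KI NASH level that the share predicts.

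Of the 13036 genes tested, 3127 differed between KI NASH and KI control (24.0%), 1962 higher in KI NASH (15.1%) and 1165 lower (8.94%). The median log2 fold change over all genes tested was 0.01. Of the hepatocyte list, 26 of the 29 members tested rose and none fell, with a median of 2.63. That list set the share, so its count is a description. Ass1 had no count in any of the 9 libraries. The counts of the other lists below are to be read beside the 15.1% higher and 8.94% lower over all genes tested.

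The share gives each gene a predicted carry-over, the share times its level in KI male liver on the same diet, which was set against the level measured in the group where the gene was higher. Genes with a predicted level of 50% or more of the measured one form a carry-over class, those under 10% a macrophage class, and those between a mixed class. Of the genes that were higher in KI NASH, 1354 fell in the macrophage class, 185 in the mixed class and 392 in the carry-over class, and 31 were not listed for liver. The carry-over class was called in 93.6% of its tested genes, the mixed class in 55.7% and the macrophage class in 21.0%. Their median log2 fold changes were 1.64 in the macrophage class, 1.82 in the mixed class and 3.17 in the carry-over class. Of the genes that were lower, 1132 fell in the macrophage class with a median of -0.50, 33 were not listed for liver, and none was mixed or carry-over. The share itself was higher in KI NASH, so genes that rose enter the carry-over and mixed classes more easily. Of the genes tested, 418 of 419 in the carry-over class and 331 of 332 in the mixed class were higher in KI NASH. The percentages called and the directions per class therefore follow in large part from the definition and are a description.

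When the predicted carry-over was subtracted from the counts, 2569 of 12829 genes passed (20%), 1490 higher (11.6%) and 1079 lower (8.41%). Of the genes first called, 1270 of the 1354 macrophage-class rises and 1022 of the 1132 macrophage-class falls passed again. The subtraction takes under 10% of the level of such genes in the higher group. That they passed again therefore follows in large part from the definition of the class. The same holds for members of that class in the lists below. In the carry-over class 74 of 392 passed again and 193 had too few counts left to be tested. A fitted fold change of a gene left near 0 by the subtraction has no meaning as a size: that of Alb was -12.12 (adjusted p = 0.083), so its direction turned. The class is therefore the safer description, and within it a gene near 50%, such as Arg1 at 50.4%, can hold transcripts of both sources.

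The share did not overlap between the diets in KI males. A fit with log2 share as a covariate takes its slope from the spread within the male groups and extends it across that gap. It can tell the diet apart from the share only if that slope holds across the gap, which was not tested. In that fit 84 genes passed, 66 higher and 18 lower. Of the genes first called, 63 of the 1354 macrophage-class rises and 18 of the 1132 macrophage-class falls passed again.

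**Figure D2:**
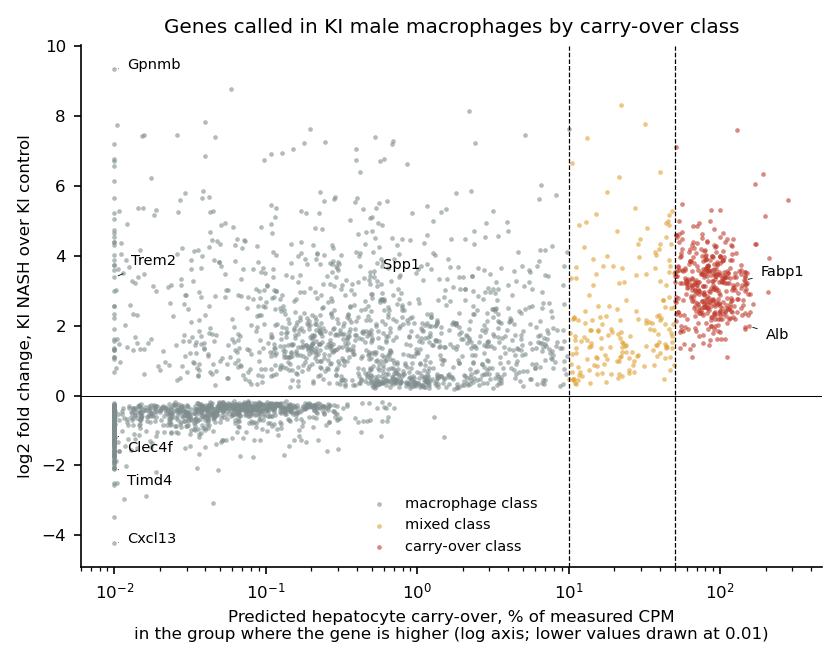
Each point is 1 of the genes called between KI NASH and KI control that is also listed for liver: the predicted hepatocyte carry-over in percent of the measured CPM (log axis) against the log2 fold change. The 392 genes of the carry-over class lie at and beyond 50% and all above 0, while the falls lie in the macrophage class, under 10%. The definition of the classes sets this pattern in large part.

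Among the genes of the carry-over class were enzymes and secreted proteins of the hepatocyte. Cyp2e1, a cytochrome P450, was at 28.2, 31.7, 48.4, 212 and 67.1 CPM in KI NASH and at 2.86, 3.17, 3.21 and 4.64 CPM in KI control, with a predicted carry-over of 111% of its KI NASH level. Fabp1, the liver fatty acid binding protein, was at 17.3 to 98.3 CPM in KI NASH and 3.00 to 5.53 CPM in KI control, with a predicted 143%. Ppara, the nuclear receptor of fatty acid oxidation, was at 2.23 to 13.3 CPM in KI NASH and 0.115 to 0.459 CPM in KI control, with a predicted 116%. In KI control the prediction came to 297% of the measured level for Cyp2e1, 144% for Fabp1 and 191% for Ppara. For Cyp2e1 and Ppara the share alone therefore does not give the size of the rise. Mat1a (methionine metabolism), Fah (tyrosine breakdown), Hpx (haem binding), Dgat2 (triglyceride synthesis) and Hamp (the iron hormone hepcidin) were in this class too, at a predicted 62.5% to 127%. So were Fn1, listed both as a monocyte and as a matrix gene (82.3%), and Arg1 (50.4%). The genes with the highest fitted rise in the class, Cyp2a5, Abcg8, Saa2 and Saa1, had at most 0.138 CPM in any KI control library and up to 11.4, 11.7, 8.87 and 12.6 CPM in KI NASH. The Cyp2 and Saa families hold near-identical copies between which reads can be split.

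Kupffer cell genes fell. Of the 20 tested members of the resident Kupffer cell list, 11 fell and none rose, with a median of -0.63, and 11 fell and none rose after the subtraction. Clec4f was at 3802, 3043, 5993, 4834 and 10325 CPM in KI NASH replicates 1 to 5, against 11359, 12968, 12757 and 11873 CPM in KI control. The groups did not overlap, and replicate 5 lay closest to the controls (log2 fold change -1.13, SE 0.31, adjusted p = 0.016). Timd4, a receptor for phosphatidylserine on dying cells, was at 165, 29.3, 222, 175 and 417 CPM in KI NASH and at 924, 869, 881 and 735 CPM in KI control (log2 fold change -2.08, SE 0.49, adjusted p = 0.0065).

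Nr1h3, which encodes the oxysterol receptor LXRα, showed a more even difference than the surface markers. It was at 409, 410, 426, 342 and 389 CPM in KI NASH and at 652, 619, 607 and 633 CPM in KI control (log2 fold change -0.67, SE 0.08, adjusted p = 0.00027). Folr2, the folate receptor beta, fell by 1.13, Vsig4, a complement receptor, by 0.90 and Slc11a1, a metal transporter of phagosomes, by 0.56, all on the log2 scale and without overlap. Adgre1, which encodes the sort marker F4/80, was at 1408 to 1728 CPM in KI NASH and 2152 to 2708 CPM in KI control. As the cells were chosen by its protein, that difference is given as a description. Cd5l, a secreted Kupffer cell protein, did not pass (log2 fold change -0.25, SE 0.16, adjusted p = 0.29). In bulk RNA, fewer cells of a type and less RNA per cell cannot be told apart.

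Genes of lipid-associated macrophages rose. Of 22 members 18 rose and none fell, with a median log2 fold change of 3.41. All 18 were in the macrophage class, and 18 rose after the subtraction. Trem2, a lipid-binding receptor, was at 349, 331, 160, 236 and 162 CPM in KI NASH replicates 1 to 5, against 14.1, 28.7, 21.9 and 30.3 CPM in KI control (log2 fold change 3.38, SE 0.43, adjusted p = 0.00036). Cd9, a tetraspanin, was at 170, 138, 114, 149 and 86.3 CPM in KI NASH and at 7.45, 8.64, 4.59 and 6.19 CPM in KI control (log2 fold change 4.30, SE 0.39, adjusted p = 5.7e-05). Both genes were high in all 5 KI NASH libraries.

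Gpnmb, a transmembrane glycoprotein of lipid-laden macrophages, was at 1300, 1059, 632, 878 and 52.4 CPM in KI NASH and at 1.72, 1.82, 1.15 and 0.119 CPM in KI control. It rose by 9.34 on the log2 scale (SE 1.65, adjusted p = 0.0015), and replicate 5 lay well below the other KI NASH libraries though above every control. The share predicts 0.000875% of its KI NASH level from hepatocytes.

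**Figure D3:**
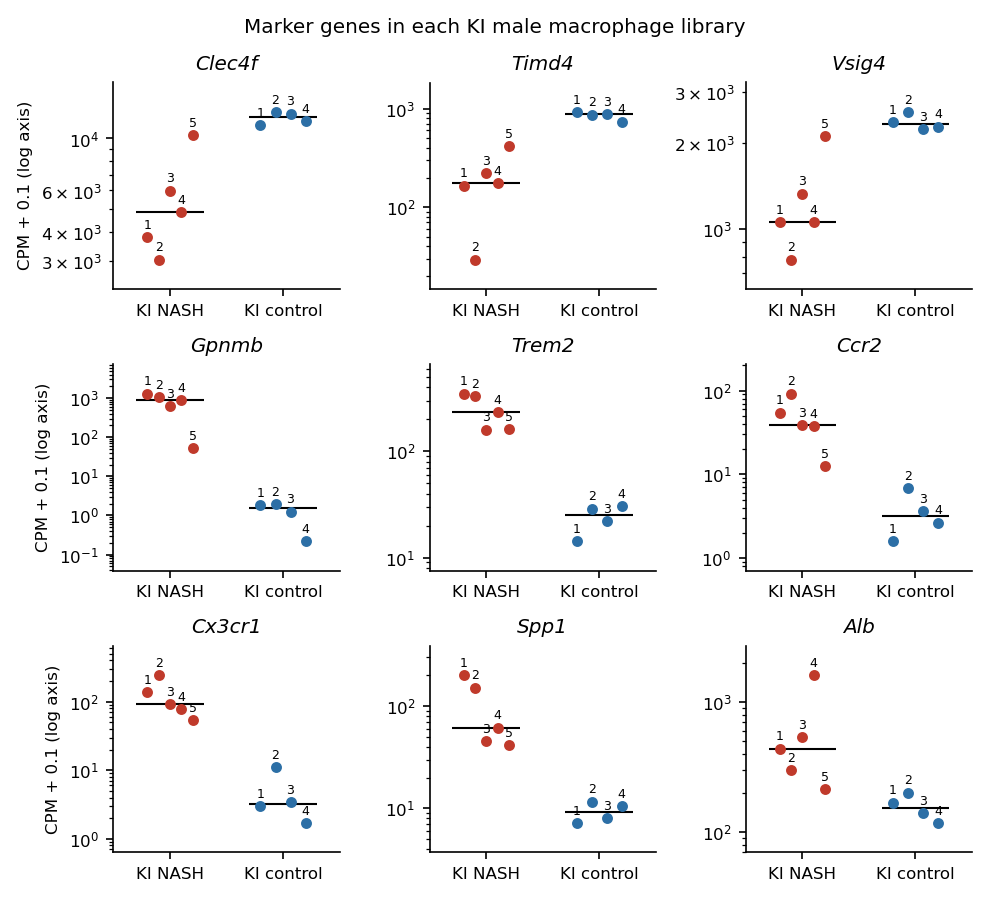
CPM plus 0.1 (log axes) of 9 marker genes in each KI male macrophage library, KI NASH left and KI control right; points carry the replicate number and lines are group medians. Clec4f, Timd4 and Vsig4 are lower in all 5 KI NASH libraries and the other 6 genes higher. Replicate 5 lies nearest to the controls for Clec4f, Timd4, Gpnmb, Ccr2, Cx3cr1, Spp1 and Alb.

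Monocyte genes divided. Of 16 members 8 rose and 2 fell, with a median of 2.16. The monocyte list summed to 1583 to 2216 CPM in KI NASH and 2044 to 2181 CPM in KI control. Ccr2, the chemokine receptor by which monocytes leave the marrow, was at 54.5, 91.6, 38.7, 37.7 and 12.4 CPM in KI NASH and at 1.49, 6.70, 3.53 and 2.56 CPM in KI control (log2 fold change 3.72, SE 0.60, adjusted p = 0.00099). Cx3cr1, the fractalkine receptor, was at 139, 242, 91.3, 78.3 and 54.0 CPM in KI NASH and at 2.92, 11, 3.30 and 1.61 CPM in KI control (log2 fold change 4.69, SE 0.66, adjusted p = 0.00058). Both were highest in replicate 2, the library with the lowest Timd4. S100a6, a calcium-binding protein, rose by 3.76. Ly6c2, the marker of classical monocytes, rose by 3.91 but stayed at 0.821 to 6.35 CPM in KI NASH and 0 to 0.238 CPM in KI control. Itgal, an integrin subunit of leukocytes, fell by 0.66, and the sort gene Itgam overlapped between the groups (log2 fold change 0.05, SE 0.32, adjusted p = 0.93).

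The receptors of osteopontin moved less than its own gene. Of 9 tested receptor genes 3 rose and none fell (median 0.23), while Itgb6 and Itgb8 had too few counts. Itga5, a subunit of the fibronectin receptor, was at 364, 168, 131, 229 and 56.1 CPM in KI NASH and at 56.1, 46.1, 55.2 and 47.8 CPM in KI control, which touched at replicate 5 (log2 fold change 1.89, SE 0.40, adjusted p = 0.0034). Itgb3, which pairs with Itgav as the vitronectin receptor, rose by 2.79 (SE 0.77, adjusted p = 0.015) and Itga8 by 1.88 (SE 0.50, adjusted p = 0.012). Cd44 was at 698 to 1189 CPM in KI NASH and 780 to 1080 CPM in KI control (log2 fold change -0.12, SE 0.14, adjusted p = 0.57). Itgav, Itgb1, Itgb5, Itga4 and Itga9 did not pass either, with log2 fold changes of -0.17 to 0.31.

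By a rule of size, the 10 macrophage-class genes with the highest rise among those whose groups did not overlap and whose mean reached 10 CPM were Gpnmb, Il7r, Slc7a11, Chst11, Vsig8, Emp1, Adam8, Olr1, Myo5a and Sdc1. The groups did not overlap in 21.2% of all genes tested. Adam8, a membrane protease of leukocytes, was at 259, 223, 182, 184 and 7.26 CPM in KI NASH and at 1.33 to 1.88 CPM in KI control. For Il7r and Slc7a11, whose controls held few counts or none, levels alone are given, with no fold change. Some fold changes printed elsewhere, such as those of Ly6c2 and Col1a1, also rest on low control counts. Il7r, the interleukin 7 receptor, was at 27.0, 16.3, 11.6, 17.7 and 0.696 CPM in KI NASH and at 0 to 0.0573 CPM in KI control. Slc7a11, the cystine importer, was at 24.1, 9.70, 7.88, 12.2 and 0.304 CPM in KI NASH and at 0 to 0.118 CPM in KI control. KI NASH replicate 5 was the lowest of its group in each of the 10 genes.

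The largest falls by the same rule were Cxcl13, Slc27a6, Rtn1, Fam71a, Nid2, Krt80, Serpina3f, Timd4, Gbp2b and Raver2. Cxcl13, a chemokine that attracts B cells, was at 13.5, 1.52, 19.4, 4.41 and 16.6 CPM in KI NASH replicates 1 to 5, against 204, 337, 161 and 127 CPM in KI control (log2 fold change -4.22, SE 0.56, adjusted p = 0.00047). Slc27a6, a fatty acid transporter, was at 4.10, 4.85, 2.15, 2.42 and 6.44 CPM in KI NASH and at 20.4, 28.4, 25.9 and 20.1 CPM in KI control (log2 fold change -2.56, SE 0.34, adjusted p = 0.00047). Gbp2b, an interferon-inducible GTPase, fell by 2.02, and its controls spread widely, with 71.2 to 118 CPM in KI NASH and 174 to 622 CPM in KI control. Replicate 5 stood within the range of its group for Cxcl13 and Gbp2b.

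Inflammatory genes rose in part. Of 20 cytokines and NF-kB targets 10 rose and 1 fell (median 0.88), and the count after the subtraction was again 10 and 1. Tnf was at 861, 579, 446, 729 and 473 CPM in KI NASH and at 115, 56.1, 157 and 89.2 CPM in KI control (log2 fold change 2.56, SE 0.51, adjusted p = 0.0026). Nfkbia and Nfkbiz, inhibitors induced by NF-kB, rose by 1.13 and 1.30, and Il12b, a subunit of interleukins 12 and 23, rose by 2.98. Il1b lay at 1031 to 2157 CPM in KI NASH and 1418 to 1958 CPM in KI control and did not pass (log2 fold change -0.15, SE 0.31, adjusted p = 0.76).

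Of 20 chemokines and receptors 7 rose and 1 fell (median 1.14). Ccl9, a chemokine for myeloid cells, was at 724, 400, 394, 426 and 48.0 CPM in KI NASH and at 18.6, 37.3, 16.7 and 12.7 CPM in KI control (log2 fold change 4.22, SE 0.93, adjusted p = 0.0042). Ccr1, a receptor for such chemokines, rose by 5.66 and Ccl22 by 2.83. Of 19 interferon response genes 1 rose and 2 fell (median -0.18). Irf7, a regulator of type I interferon genes, was at 504, 621, 586, 776 and 793 CPM in KI NASH and at 701, 1454, 1360 and 1350 CPM in KI control, where replicate 1 lay within the range of KI NASH (log2 fold change -0.89, SE 0.20, adjusted p = 0.0052). Cxcl10, a chemokine induced by interferon, rose by 1.61 and lost the threshold in 5 of the fits without 1 library.

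Of the 13 genes of the oncostatin M, STAT3 and arginase list 6 rose and 1 fell (median 0.75). Osm, which encodes oncostatin M, was at 43.1, 55.1, 27.0, 35.5 and 48.3 CPM in KI NASH and at 4.01, 1.47, 4.13 and 2.98 CPM in KI control (log2 fold change 3.72, SE 0.63, adjusted p = 0.0012). Replicate 5 was as high as the rest of its group. Its receptor Osmr rose by 2.39, Lif by 3.29 and the feedback inhibitor Socs3 by 1.26. Stat3 did not pass (log2 fold change -0.08, SE 0.15, adjusted p = 0.73), nor did Arg2, the mitochondrial arginase (0.43, SE 0.33, adjusted p = 0.38). Arg1, the hepatocyte arginase, rose by 3.53, with 50.4% of its KI NASH level predicted as carry-over. It also passed as higher in KI NASH after the subtraction (edgeR quasi-likelihood test, adjusted p = 0.0047).

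Genes of efferocytosis, complement and scavenging fell more often than they rose, with 3 up and 10 down of 24 (median -0.44). C1qa, a chain of the complement starter C1q, was at 2835, 2736, 3107, 2511 and 3458 CPM in KI NASH and at 4687, 5342, 4886 and 4471 CPM in KI control (log2 fold change -0.73, SE 0.13, adjusted p = 0.0015). C1qc fell by 0.57. The C1q receptor gene Cd93 rose by 3.64 and Mfge8, a bridging protein for dying cells, by 1.82. Of 24 macrophage transcription factors 2 rose and 9 fell (median -0.27), a count that dropped to 5 falls without KI control replicate 3. Spi1, which encodes PU.1, fell by 0.42, Klf4 by 0.78 and Rxra, the partner of LXR and PPAR receptors, by 0.74, while Runx3, at 3.87 to 24.4 CPM in KI NASH and 0.119 to 1.12 CPM in KI control, rose by 4.89.

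Of 21 genes of lipid droplets and fatty acid uptake 14 rose and none fell (median 1.23). Of these rises 3 were of the carry-over class, and 9 genes rose after the subtraction. Fabp4, a fatty acid carrier of macrophages, was at 71.4, 39.6, 147, 200 and 37.9 CPM in KI NASH and at 5.50, 6.94, 5.69 and 6.49 CPM in KI control, with 0.118% of its KI NASH level predicted as carry-over (log2 fold change 4.01, SE 0.66, adjusted p = 0.0011). Of 24 genes of cholesterol synthesis and uptake 14 rose and none fell (median 0.64), with 8 after the subtraction and 6 to 9 without any 1 of KI control replicates 1, 2 and 3 or KI NASH replicates 1, 2 and 4. Hmgcs1, the synthase before HMG-CoA reductase, rose by 1.10 and Fdps by 0.99, with 3.54% and 9.34% predicted as carry-over. Of 18 LXR targets 6 rose and 3 fell (median 0.32). Srebf1, the regulator of fatty acid synthesis, was at 227, 231, 189, 252 and 153 CPM in KI NASH and at 115, 110, 115 and 106 CPM in KI control (log2 fold change 0.91, SE 0.12, adjusted p = 0.00047). The desaturase Scd2 rose by 1.84 with 0.0867% predicted as carry-over, and its paralog Scd1 by 2.08 with 35.8%.

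Of 27 genes of fatty acid oxidation and PPAR targets 10 rose and none fell (median 0.20), 6 of them after the subtraction. Angptl4, an inhibitor of lipoprotein lipase, rose by 2.42 and Pdk4, which spares glucose, by 1.74. Of 23 genes of glycolysis and hypoxia 12 rose and 2 fell (median 0.48). Vegfa was at 303, 195, 130, 360 and 9.22 CPM in KI NASH and at 3.72, 5.58, 5.09 and 3.99 CPM in KI control (log2 fold change 5.43, SE 1.09, adjusted p = 0.0026). The glycolytic enzyme Pfkl rose by 0.98 and the hexokinase Hk3 fell by 0.64. Of 29 genes of oxidative phosphorylation none rose and 2, Cox5a and Sdhd, fell (median -0.03).

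Lysosomal genes went both ways, 7 up and 7 down of 28 (median -0.04). Atp6v0d2, a proton pump subunit of lipid-laden macrophages, rose by 5.86, Ctsk by 1.92 and Gusb by 0.74, while Ctsc fell by 0.43. Of 21 genes of iron and haem handling 2 rose, both of the carry-over class, and 6 fell. Blvrb, a biliverdin reductase, was at 176, 169, 191, 159 and 203 CPM in KI NASH and at 292, 300, 318 and 292 CPM in KI control (log2 fold change -0.74, SE 0.10, adjusted p = 0.00054). Of 18 NRF2 and glutathione genes 4 rose and 2 fell, among them Gstm1 up by 0.99 with 21.4% predicted as carry-over and G6pdx down by 0.44. Of 13 genes of MHC class II presentation 1 rose, H2-Oa, and 1 fell, Cd86 (median 0.02).

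Of 19 checkpoint and Fc receptor genes 2 rose and 6 fell (median -0.07). Slamf7 was at 134, 171, 56.3, 111 and 12.7 CPM in KI NASH and at 4.70 to 6.93 CPM in KI control, and Havcr2, which encodes TIM-3, rose by 1.71. Tyrobp, which encodes the adaptor of TREM2 and related receptors, fell by 0.41. Of 24 immediate early and heat shock genes 4 rose and 2 fell (median 0.00), close to the 15.1% higher and 8.94% lower over all genes tested. Among them Egr1 was up by 1.23, Egr2 up by 1.55 and Klf2 down by 0.82. Of 22 genes of the unfolded protein response 3 rose and none fell (median 0.20): Asns, Chac1 and Derl3, each at or under 2.65 CPM in every library. That number of rises is also close to the 15.1% over all genes tested. Of 28 cell cycle genes 1 rose, Ccnd2, and Mki67 did not pass (log2 fold change 0.97, SE 0.44, adjusted p = 0.12).

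Matrix genes rose. Of 31 members 23 rose and none fell (median 2.48), and 22 of the risen ones were in the macrophage class. The summed level of the list was 1823 to 4569 CPM in KI NASH and 1292 to 1426 CPM in KI control. Mmp12, the macrophage elastase, named here after its values were seen, averaged 960 ± 587 CPM in KI NASH (SD, n = 5) and 25.8 ± 10.01 CPM in KI control (SD, n = 4), and it rose by 5.22 (SE 1.15, adjusted p = 0.0042). Col1a1, a chain of fibrillar collagen made by stellate cells, was at 12.4, 14.4, 13.5, 17.9 and 0.870 CPM in KI NASH and at 0.458, 0.0588, 0.229 and 0.0595 CPM in KI control (log2 fold change 5.81, SE 1.07, adjusted p = 0.0017). Col1a2 rose by 3.38, Col3a1 by 3.05, Col6a3 by 4.47 and the gelatinase Mmp2 by 2.73. Of 14 stellate cell genes, some on both lists, 5 rose and none fell (median 0.99), and the summed level of the stellate list was 303 to 595 CPM in KI NASH and 242 to 348 CPM in KI control. The macrophage class is set against hepatocyte carry-over as whole liver shows it, and carry-over from other cells was not tested.

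Markers of other leukocytes moved with the diet as well. Of 13 T and NK cell genes tested 11 rose and none fell (median 4.10), yet their summed level was 7.30 to 46.4 CPM in KI NASH and 2.60 to 6.66 CPM in KI control. Without any 1 of the 4 KI control libraries, or without KI NASH replicate 2 or 4, 4 or 5 of these genes passed. Klrb1c, an NK cell receptor, was at 0.478 to 3.05 CPM in KI NASH and 0 to 0.0573 CPM in KI control, and Gzmb, a granzyme, at 0.769 to 9.14 CPM in KI NASH and 0 to 0.235 CPM in KI control. Of 10 dendritic cell genes 5 rose (median 2.58), with a summed level of 273 to 428 CPM in KI NASH and 214 to 345 CPM in KI control. Siglech, a marker of plasmacytoid dendritic cells, was at 0.808 to 10.3 CPM in KI NASH and 0 to 0.0459 CPM in KI control.

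Of 6 neutrophil genes tested 4 rose and 1 fell (median 2.52), with S100a8 at 0.131 to 3.36 CPM in KI NASH and 0.294 to 0.458 CPM in KI control. Of these rises 1 was of the carry-over class, Lcn2, named after its values were seen, and 2 genes rose after the subtraction. S100a8 and S100a9 missed the threshold without any 1 KI control library or without KI NASH replicate 4. S100a8 also missed it without any 1 WT control library, without KI NASH replicate 1, 2 or 3, and without WT NASH replicate 4 or 5. Ly6g, the defining neutrophil marker, was at 0 to 0.0927 CPM in KI NASH and 0 in every KI control library. Csf3r, the member that fell, was at 111 to 153 CPM in KI NASH and 159 to 180 CPM in KI control (log2 fold change -0.43, SE 0.12, adjusted p = 0.015). The neutrophil list summed to 132 to 193 CPM in KI NASH and 178 to 205 CPM in KI control. Of 8 B and plasma cell genes 1 rose, Jchain, and Cd79a overlapped between the groups. The 14 sinusoidal endothelial genes had a median of 0.96, and their summed level was 1882 to 5862 CPM in KI NASH (median 5091) and 3030 to 3418 CPM in KI control. In WT males 10 of them were called higher, and in KI 1 rose, Lyve1, at 52.8, 36.5, 214, 154 and 102 CPM in KI NASH and at 22.5, 32.0, 22.9 and 30.6 CPM in KI control, and Stab2 did not pass (log2 fold change 0.17, SE 0.23, adjusted p = 0.65). None of 3 erythroid and platelet genes passed, and the 4 globin genes had no count in any of the 9 libraries. The part of these cells in the changes of the macrophage class was not tested.

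**Figure D4:**
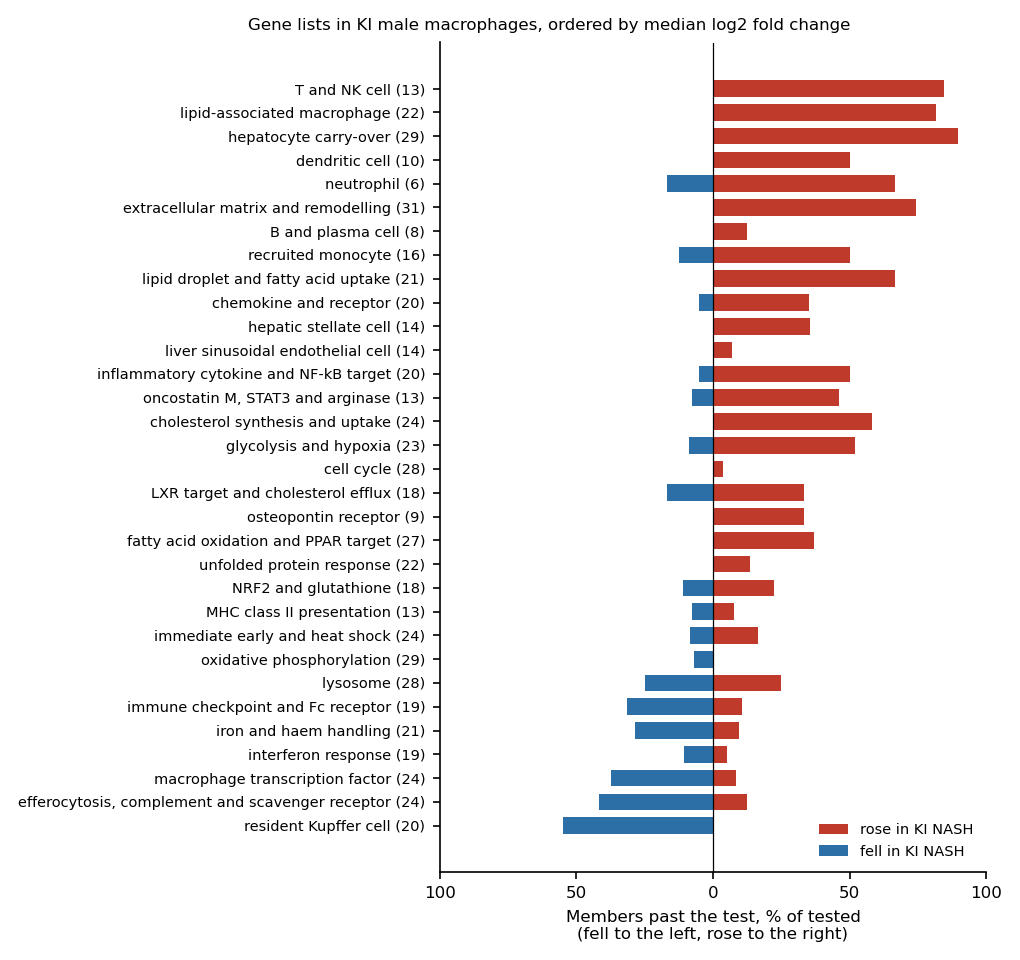
Share of the tested members of each gene list, in percent, that rose (right) or fell (left) in KI NASH against KI control; the number tested stands in brackets and lists are ordered by median log2 fold change. The cholangiocyte and the erythroid and platelet lists, with few members tested, are not drawn. Hepatocyte and lipid-associated macrophage genes rose in 26 of 29 and 18 of 22 members, and Kupffer cell genes fell in 11 of 20.

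The KI NASH libraries differed in how far they stood from KI control. Over the 1354 macrophage-class rises, the median log2 difference from the KI control mean was 1.10, 1.01, 1.24, 1.72 and 0.62 in replicates 1 to 5. Over the 1132 macrophage-class falls it was -0.58, -0.47, -0.50, -0.54 and -0.33. These genes were chosen by this comparison, so the values describe the libraries only: replicate 5 stood closest to the controls on both sides, and replicate 4, the one with the most hepatocyte RNA, farthest on the side of the rises. Without replicate 5 the test called 3991 genes and without replicate 4 it called 2224. The summed level of the Kupffer list was 19004 to 40588 CPM in KI NASH and 39897 to 43661 CPM in KI control, overlapping at 1 library.

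WT males had the same contrast in other libraries, which were fitted together with the KI libraries under 1 shared spread. There the diet changed 1068 of 13036 genes (8.19%), 699 higher (5.36%) and 369 lower (2.83%). That count rested on single libraries: it was 524, 83, 298 and 284 without WT control replicates 1 to 4 in turn and 277 without WT NASH replicate 4. Of the 1354 macrophage-class rises in KI, 431 were also called higher in WT, which is 31.8% of the KI rises and 65.5% of the 658 WT rises of that class. Of the 1132 macrophage-class falls 181 were also called lower in WT, 16.0% of the KI falls and 50.1% of the 361 WT falls. Of the 392 carry-over rises none was called in WT, where their median log2 fold change was 0.17 and in KI 3.17.

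The difference between both diet effects was tested directly. None of 13036 genes passed in the edgeR test, with 1595 at an unadjusted p under 0.05. DESeq2 called 250, with a KI minus WT log2 difference above 0 in 212 and below 0 in 38. A difference below 0 can stand for a greater fall in KI or for a smaller rise. The genes with the smallest p in edgeR were Cyp2e1, Fah, Cyp2c29, Stag3 and Slpi among those described here, each at an adjusted p of 0.17. Cyp2e1, Fah and Cyp2c29 are carry-over genes. Slpi, a secreted protease inhibitor, was at 1.23 to 3.41 CPM in KI NASH and 0 to 0.0595 CPM in KI control. Stag3, a cohesin subunit of meiosis, had a diet effect of -1.60 in KI and 0.21 in WT on the log2 scale. For Timd4 the diet effect was -2.08 in KI and -0.88 in WT, for Trem2 3.38 in KI and 2.12 in WT, for Tnf 2.56 in KI and 1.15 in WT, and for Spp1 3.43 in KI and 5.95 in WT, and none of these differences passed (adjusted p 0.35 to 0.50).

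**Figure D5:**
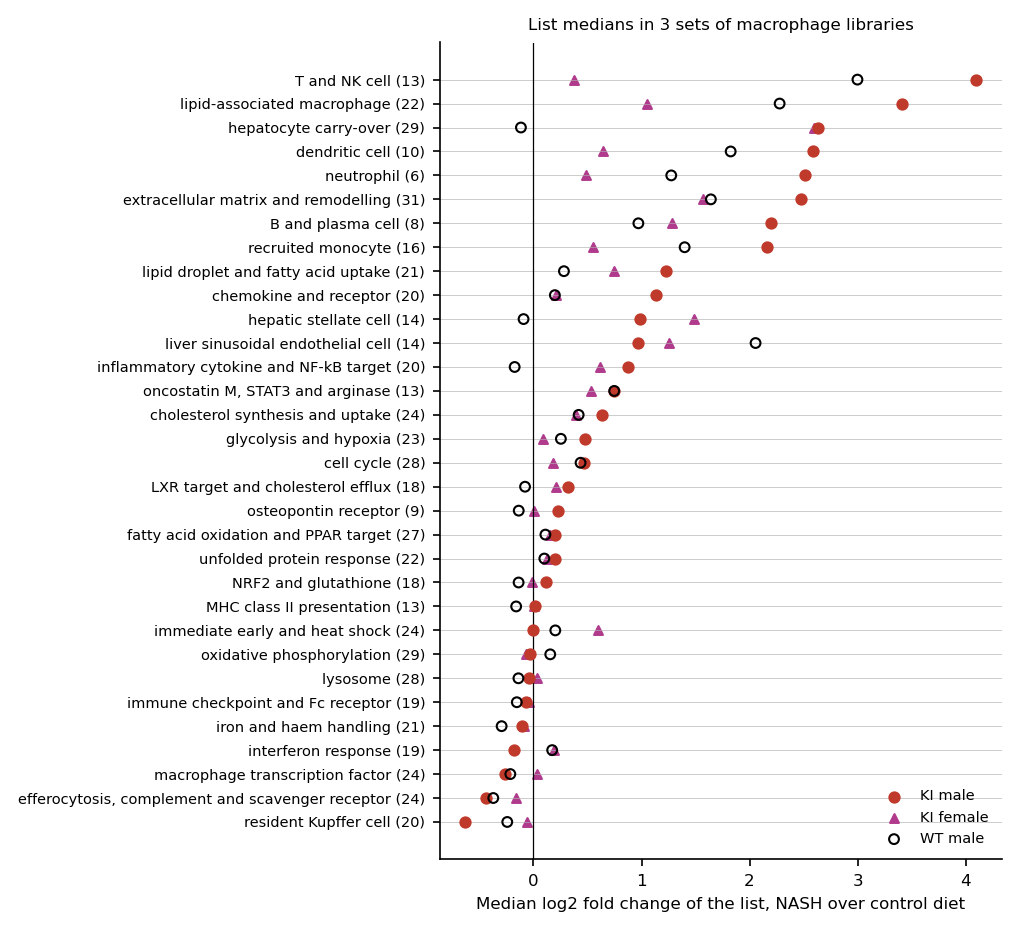
Median log2 fold change of each gene list for NASH over control diet in KI male, KI female and WT male macrophages (filled circles, triangles and open circles). The hepatocyte list has medians of 2.63 in KI males, 2.60 in KI females and -0.12 in WT males.

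KI females offer the same contrast in other animals. In a fit of the 19 KI libraries the diet changed 4 of 13106 genes in females (0.0305%): Angptl4 rose by 2.28 and Lrat, a retinol esterifying enzyme, by 1.88, while Atp6v0e2 and Nck1 fell. Lrat, Atp6v0e2 and Nck1 are named because the count is so small. DESeq2 called 787 genes and 2067 had an unadjusted p under 0.05. The count depended on single libraries, with 309 and 301 genes without male KI NASH replicate 4 and female KI NASH replicate 4, 152 without female KI NASH replicate 1, 52 without male KI NASH replicate 5, 11 without female KI NASH replicate 3, 7 without male KI control replicate 1 or female KI control replicate 4, 1 without female KI control replicate 3, and 3 to 5 without any other library.

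Directions were mostly shared between the sexes. Of the 1334 macrophage-class rises of males that were tested in females, 1212 were also above 0 in females (90.9%), where 51.9% of all genes were, and their median log2 fold change was 1.61 in males and 0.66 in females. Of the 1130 macrophage-class falls 935 were below 0 in females (82.7%), against 48.2% of all genes, with medians of -0.49 in males and -0.12 in females. The 390 carry-over rises had medians of 3.17 in males and 2.61 in females, and 382 of them were above 0 in females. Clec4f had a diet effect of -1.13 in males and -0.07 in females, and Gpnmb of 9.34 in males and 3.45 in females, neither of which passed in females (adjusted p = 0.93 and 0.11).

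The difference between the sexes passed in 5 of 13106 genes (0.0382%), 3 with the higher value in males (0.0229%) and 2 with the lower (0.0153%). Gdf3, a growth factor of the TGF-beta family, was at 45.8, 54.4, 35.7, 54.8 and 9.27 CPM in KI NASH males and 0.871 to 1.49 CPM in KI control males. In females it was at 88.9 to 171 CPM in KI NASH and 32.3 to 134 CPM in KI control. Its diet effect was greater in males by 4.35 on the log2 scale (adjusted p = 0.018). Clcf1, a cytokine of the interleukin 6 family, differed by 3.02 (adjusted p = 0.033) and Capn2, a calpain protease, by 0.81 (adjusted p = 0.049). Cd300ld, a myeloid receptor, fell in males by 0.92 and had a female log2 fold change of 0.03, a difference of -0.93 (adjusted p = 0.010). Chmp6, a sorting protein of endosomes, differed by -0.53 (adjusted p = 0.049). The count was 445 without male KI NASH replicate 5, 240 without female KI NASH replicate 5 and 29 without female KI control replicate 4, and it was 1 without male KI control replicate 1, 2, 3 or 4 or male KI NASH replicate 1, and 2 or 3 without male KI NASH replicate 3, female KI control replicate 1, 2 or 3, or female KI NASH replicate 1, 3, 4 or 6.

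The promoter letters shown above were counted over the 250 bases before the start site, on both strands, in the genes that matched a RefSeq symbol. GTTAAT or its complement ATTAAC stood in 18.4% of 299 carry-over promoters, in 6.50% of 1016 macrophage-class rises, in 5.07% of 887 macrophage-class falls, in 5.27% of the 10237 tested genes that matched and in 7.49% of all 27025 symbols. TGAGTCA or TGACTCA stood in 7.28% of the macrophage-class rises, 3.61% of the falls, 7.69% of the carry-over genes, 4.19% of the tested genes and 5.16% of all symbols. GGAAGTG or CACTTCC stood in 11.2% of the rises, 13.5% of the falls, 6.02% of the carry-over genes, 13.5% of the tested genes and 9.77% of all symbols. These are shares of letters in a window, given with no test.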

How the data were processed

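Libraries were grouped by the title, genotype, diet and sex in the labels. The authors deposited raw counts per gene symbol (24982 symbols in the macrophage table). The labels' protocols name stranded mRNA libraries, and the genome build is mm10 per the submitters' processing notes. Which aligner and counter were run, and whether reads were counted by strand, is not given in the sources used here. Near-identical copies, overlapping genes and antisense genes are therefore uncertain.

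Counts were fitted in R 4.3.3 with edgeR 4.0.16 (TMM, filterByExpr with a minimum count of 10 and a minimum total count of 15, quasi-likelihood test, Benjamini-Hochberg threshold 0.05 over all genes tested), over the 18 male macrophage libraries with 1 mean per group. The fit of the 19 KI libraries of both sexes gave the female values. Unless another test is named, an adjusted p is that of these fits, whose spread is that between libraries, which may be technical in part. CPM are TMM-scaled. SEs were taken from the fold change and the F statistic. The fit was first tested on simulated data. WT male control liver replicates 3 and 4 agree more closely than separate sampling of reads would give. Their counts had a mean chi-square per gene of 0.067, against 3.57 to 6.91 in the other pairs of that group. They were counted as 1 sample and bear only on WT shares. The library labelled WT male control replicate 4 carried transcripts typical of the other sex and stayed in its group.

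The 34 gene lists, the thresholds and the rule for named genes (the osteopontin genes, the 10 largest macrophage-class rises and 10 largest falls, without overlap and from a mean of 10 CPM in the higher group, 4 carry-over genes, up to 4 genes per list by p, textbook markers, and the 6 smallest p of each difference) were chosen with earlier results of these data known. Ighm, Igkc, Ighd, Trac, Trbc2 and Lilrb4 are not in the table and were not used here, and a few genes that the rule names are not reported here. Promoters came from RefSeq on GRCm38.p6, matched by symbol. Alternatives were DESeq2 1.42.0 and its size factors, no filter, a replicate block, each library left out, the carry-over subtracted, the share as covariate and other definitions of the share and classes.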

Additional observations from a re-analysis of the deposited data

Results flagged for a closer look

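Dixon's test was run on log2 values in 302 groups, each a gene or the hepatocyte share in the 5 KI NASH or the 4 KI control libraries. In 37 groups it set a library apart from the others, which chance gives in about 1 of 20 groups. KI NASH replicate 5 was set apart in 19 of them, each time as the lowest of its group: Gpnmb at 52.4 CPM, Il7r at 0.696, Slc7a11 at 0.304, Chst11 at 2.17, Vsig8 at 0.522, Adam8 at 7.26, Myo5a at 6.39, Sdc1 at 4.70, Ccr1 at 1.83, Ccl9 at 48.0, Ccl22 at 1.13, Cd93 at 83.2, Ctsk at 1.22, Atp6v0d2 at 1.91, Vegfa at 9.22, Col1a1 at 0.870, Col1a2 at 2.22, Col3a1 at 3.44 and Gdf3 at 9.27 CPM. KI NASH replicate 4, the library with the most hepatocyte RNA, was the highest for Mat1a at 74.8 CPM, Cyp2a5 at 11.4, Ppara at 13.3 and Ly6c2 at 6.35 CPM. KI NASH replicate 1 was the highest for Lyz2 at 3801 CPM, and KI NASH replicate 2 the lowest for Itgb1 at 583 CPM.

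In KI control, replicate 1 was set apart for Cyp2a5 at 0.0573 CPM, Saa2 at 0.115, Klrb1c at 0.0573, Irf7 at 701, and Ly6c2 and S100a9 at 0 CPM. Replicate 2 was set apart for Hpx at 14.1 CPM, Itgal at 1331, Sdhd at 113 and Slpi at 0 CPM, and replicate 3 for Klf2 at 2019 CPM and Siglech at 0.0459 CPM. Several of these values stand for 1 count or none.

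The diet effect differed between KI males and KI females, by the test of the difference, for Gdf3 (4.35 on the log2 scale), Clcf1 (3.02), Capn2 (0.81), Cd300ld (-0.93) and Chmp6 (-0.53).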

How the results depend on the processing

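The KI male diet effect changed 3127 genes, and 2569 to 3742 under size factors of DESeq2, no filter on low counts, DESeq2, the subtraction, the 9 KI libraries alone and a replicate block. With the hepatocyte share as covariate it was 84, in a fit that extends its slope across the gap in shares between the diets. Without 1 library each the count ran from 2224 to 3991. In the covariate fit Alb turned to -0.90, Apoa1 to -0.33 and Ttr to -0.32, and after the subtraction Alb turned to -12.12, where few counts were left. Of 134 named genes called, 123 stayed called in every fit without 1 library, and Alb, Ccnd2, Cd3e, Cd86, Cxcl10, Derl3, Jchain, Raver2, S100a8, S100a9 and Sdhd did not. With the covariate 25 of 134 stayed called.

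The share difference was 2.11 to 2.81 on the log2 scale without 1 library each, 2.49 with all 8 KI male livers as denominator, 0.32 by summed CPM and 0.58 by summed CPM without Apoc1. A threshold of 25% or 75% in place of 50% gave 470 or 268 carry-over rises.

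The WT diet effect (1068 genes) came to 1730 with DESeq2 and 83 to 1412 without 1 library each. The KI minus WT difference (0 genes) came to 250 with DESeq2 and 0 to 1 without 1 library each. The female effect (4 genes) came to 787 with DESeq2, 0 with the covariate and 1 to 309 without 1 library each. The male minus female difference (5 genes) came to 3 without the filter, 323 with DESeq2, 112 with the covariate and 1 to 445 without 1 library each. The cause of these changes was not tested.

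The replicate numbers do not pair the libraries: deviations of KI NASH and KI control libraries with the same number had correlations of -0.13 to 0.10, and 1 of 4 correlated best with its own number. With the replicate block the KI male effect called 3742 genes, the WT effect 1952, the KI minus WT difference 0, the female effect 0 and the male minus female difference 0. At these depths genes under about 1 CPM rest on few counts.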

Other observations

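The hepatocyte genes did not keep 1 ratio to liver in KI control. There the macrophage level as a percentage of the liver level was 0.207% for Alb, 0.216% for Apoa1 and 0.231% for Ttr, which encode secreted plasma proteins, but 0.0345% for Cps1, 0.0582% for Cyp2e1 and 0.0600% for Bhmt, which are enzymes of the urea cycle, drug metabolism and betaine use. In KI NASH the same genes lay closer together, at 0.849% for Alb, 1.16% for Apoa1 and 1.66% for Ttr, and at 1.25% for Cps1, 1.19% for Cyp2e1 and 1.22% for Bhmt. These genes were picked after their values were seen, and the pattern was not tested.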
